A study of Mus musculus with 26 samples.

Results

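The chromatin regulator genes examined here are the enzymes and enzyme subunits that write, erase or read marks on histones and DNA, or that move nucleosomes. They were taken by gene symbol alone: lysine demethylases (Kdm), lysine methyltransferases of the Kmt2, Setd and Ezh families, histone deacetylases (Hdac), Smarc subunits and ATPases, Chd remodellers, Arid proteins, Brd1 to Brd9, the acetyltransferases Ep300 and Crebbp, and the Dnmt and Tet enzymes of DNA methylation. This symbol rule found 79 genes, each with 1 transcript, among the 10104 transcripts listed for either cell type. Of these, 71 were listed for oligodendrocyte progenitor cells (OPCs, of 8530 transcripts), 78 for oligodendrocytes (OLs, of 9751) and 70 for both, and the same 70 had a half-life in all 5 replicates (of 8112 such transcripts). Arid5b was listed for OPCs alone, and Arid5a, Chd3, Hdac4, Hdac8, Hdac10, Kdm4c, Setd1b and Setdb2 for OLs alone. The rule itself used no measured value, but it was chosen with earlier results of these data known. It was applied to transcripts already listed at 1 FPKM or more at 0 h.

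OPCs divide and, when they leave the cell cycle, become OLs, the cells that make myelin. Histone deacetylases, the SWI/SNF ATPase Smarca4, the remodellers Chd7 and Chd8, Ezh2 and the DNA methyltransferases are known to take part in that step. Chromatin regulators are mostly long messages for large nuclear proteins, and many of them work in complexes in which 1 of several related subunits is used, so that the relative levels of related genes set which complex a cell can form.

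The cells came from mouse 129S/SvEv epiblast stem cells that had been turned into OPCs in culture. OPCs (3 replicates) were kept in medium with bFGF and PDGFA, and OLs (2 replicates) were made from OPCs in medium with noggin, IGF-1, cyclic AMP, NT3 and the thyroid hormone T3. Both received 5-ethynyl uridine (5-EU), a uridine analogue that is built into new RNA, for 24 h; it was then replaced by uridine, and labelled RNA was captured after 0, 1, 2, 4 and 6 h of chase, 25 libraries in all. The study treats the replicates as independent experiments and says that the OL replicates match a pair of the OPC replicates, without giving their numbers. The plates of 1 replicate share a 0 h reference. Each half-life is the time in which the labelled RNA falls to 50 percent, fitted to 1 exponential per transcript and replicate, and values above 6 h were set to 6 h.

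The labels were checked by markers at 0 h. Summed FPKM (reads per transcript length and library size) of 10 OL markers was 37.6 to 55.1 in the OPC libraries, where 2 of the 10 were listed, and 2837 to 6192 in the OL libraries, where 9 were. The 8 OPC markers summed to 1548 to 1716 in OPCs and to 1320 to 1522 in OLs. Olig1 and Olig2 carried the sum in OPCs. In OLs Gpr17 (323 and 299 FPKM, from 5.00 to 6.61 FPKM in OPCs) was a large part of it and stood above Olig2 (218 and 190 FPKM). Pdgfra, Sox10, Lhfpl3 and Gpr17 were higher in each OL library. The 6 dividing-cell markers summed to 347 to 453 in OPCs and to 27.2 to 80.2 in OLs. Of 7 astrocyte markers 4 were listed in OPCs (sum 253 to 300) and 6 in OLs (511 to 609), with S100b going from 9.07 to 10.5 FPKM up to 160 and 290 FPKM and Slc1a3 from 179 to 224 FPKM down to 95.5 and 155 FPKM. Of 7 neuron markers 3 were listed in OPCs (83.3 to 189) and 4 in OLs (200 to 215). No microglia or epiblast stem cell marker was listed. Replicates stood apart in 2 ways that touch the values below. OPC replicate 1 was lower than the mean of the other OPC replicates at 0 h for 59 of 71 chromatin regulators (median log2 difference -0.56), against 4192 of 8530 transcripts in all (median 0.01), and over the chromatin regulators this difference followed the share of codons ending in G or C (Spearman rho 0.64). In OPC replicate 2, 24 of 70 chromatin regulators (34.3%) and 25.6% of all transcripts had a half-life within 0.01 h of 1.96 h, the value to which this fit goes whenever the 1 h and 2 h points lie above the curve and the 4 h and 6 h points below it. In each of the other 4 replicates, at most 3 of the 70 were there. Half-lives of different transcripts are therefore tied in that replicate.

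These transcripts were long and rich in codons that end in A or T. All 79 matched GENCODE M21 (GRCm38) by identifier and symbol. The median messenger RNA was 5419 bases long, against 3099 bases over 10090 coding transcripts listed, and 72 of 79 had more codons than the median of all (1161 against 467 codons). The longest was Kmt2d, the H3K4 methyltransferase of enhancers, with 19823 bases and 5588 codons. Codons ending in G or C made up 54.7% in the median, against 60.6% over all, and ranged from 36.5% in Arid4b to 74.5% in Smarcd3. For phenylalanine the share of UUU among UUU and UUC codons was 52.6%, against 44.4% over all, and for lysine the share of AAA among AAA and AAG codons was 41.2% against 37.5%, these being the codons whose decoding the study followed. The 3′ untranslated region (3′UTR) was close in length to that of all transcripts (1188 against 1096 bases).

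AU-rich motifs are shown for the shortest-lived OL transcripts because their count moved with half-life in OLs (below). The pentamer ATTTA, counted on the RNA strand with overlaps, occurred in the 3′UTR of 58 of 79 chromatin regulators (73.4%, against 69.1% of all transcripts), and TATTTAT, which holds it, in 33 (41.8% against 29.7%). The lines give the first TATTTAT of each 3′UTR that has 10 bases on either side, with the motif in capitals, for Arid4a, Arid4b, Kdm6a and Tet1, the shortest-lived in OLs, and for Kdm7a, which had the most ATTTA (19). They lie in the last exons at chr12:71098510-71098536 (Arid4a, forward strand), chr13:14198532-14198558 (Arid4b, forward), chrX:18279316-18279342 (Kdm6a, forward), chr10:62810741-62810767 (Tet1, reverse) and chr6:39142803-39142829 (Kdm7a, reverse).
Arid4a: ttgttaaataTATTTATtcagacattg
Arid4b: tcaaagtgtaTATTTATtcataatgaa
Kdm6a: aaatttacacTATTTATaaatacatat
Tet1: ttcagttaggTATTTATttgttagtgt
Kdm7a: tttttaaagcTATTTATttggaagatt

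Kmt2b and Kmt2c, and Smarcc1 and Smarcc2, differed in how they spell lysine, whereas Hdac1 and Hdac2 were close over the whole coding sequence. The lines give, in frame, the first run of 10 codons within 1 exon that holds the most lysine codons, AAA and AAG in capitals, for 3 pairs of related genes described below. The windows are at chr7:30586521-30586550 (Kmt2b, exon 3, reverse strand), chr5:25299485-25299514 (Kmt2c, exon 43, reverse), chr4:129517405-129517434 (Hdac1, exon 12, reverse), chr10:36998494-36998523 (Hdac2, exon 12, forward), chr10:128469272-128469301 (Smarcc2, exon 10, forward) and chr9:110171036-110171065 (Smarcc1, exon 10, forward).
Kmt2b: AAGtttgtttccAAGgccAAGAAAgtgAAG
Kmt2c: AAAAAGAAAagaacaagaAAAAAGAAAAAA
Hdac1: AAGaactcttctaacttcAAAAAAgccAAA
Hdac2: gttgctgatcatAAGAAAggagcaAAGAAG
Smarcc2: AAGAAGgggggcaactatAAGAAGaggAAG
Smarcc1: acagagtcccgcAAGAAGagcgggAAGAAA
Kmt2c used AAA in 5 of the 7 lysine codons shown and Smarcc2 in 0 of 5. Over the whole coding sequence AAA made up 58.3% of the lysine codons of Kmt2c and 32.2% of those of Kmt2b, 45.0% in Smarcc1 and 33.3% in Smarcc2, and 51.2% in Hdac1 and 47.5% in Hdac2. The other Kmt2 genes had 46.4% (Kmt2a), 29.2% (Kmt2d) and 57.8% (Kmt2e). The windows were picked for lysine density and do not stand for the whole sequence.

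The half-life of chromatin regulator transcripts was below that of the typical transcript in both cell types. For the 70 with 5 values it stood at a median of 1.90, 1.96 and 2.20 h in the 3 OPC replicates, against 2.35, 2.08 and 2.83 h over all transcripts. In the OL replicates it was 3.28 and 2.98 h, against 4.54 and 4.44 h. In every replicate the median of the chromatin regulators was below that of all transcripts, and 47, 49, 50, 43 and 51 of the 70, in the same order of replicates, were below it. Their median percentile among all half-lives was 39.7, 34.3 and 39.5 in OPCs and 38.2 and 30.5 in OLs. They were also seldom at the ceiling: 9, 4 and 13 of 70 in OPCs and 20 and 10 in OLs reached 6 h, which is 12.9, 5.71 and 18.6% and then 28.6 and 14.3%, whereas 24.5, 25.3, 31.6, 42.3 and 38.8% of all transcripts did.

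The order of half-lives among these genes was kept in part. Over the 70, Spearman's rho between replicates was 0.56 to 0.67 within OPCs, 0.79 between the OL replicates and 0.14 to 0.52 between an OPC and an OL replicate, whereas over all transcripts it was 0.79 to 0.81, 0.75 and 0.60 to 0.72. These are descriptions over genes, which are not replicates.

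**Figure D1:**
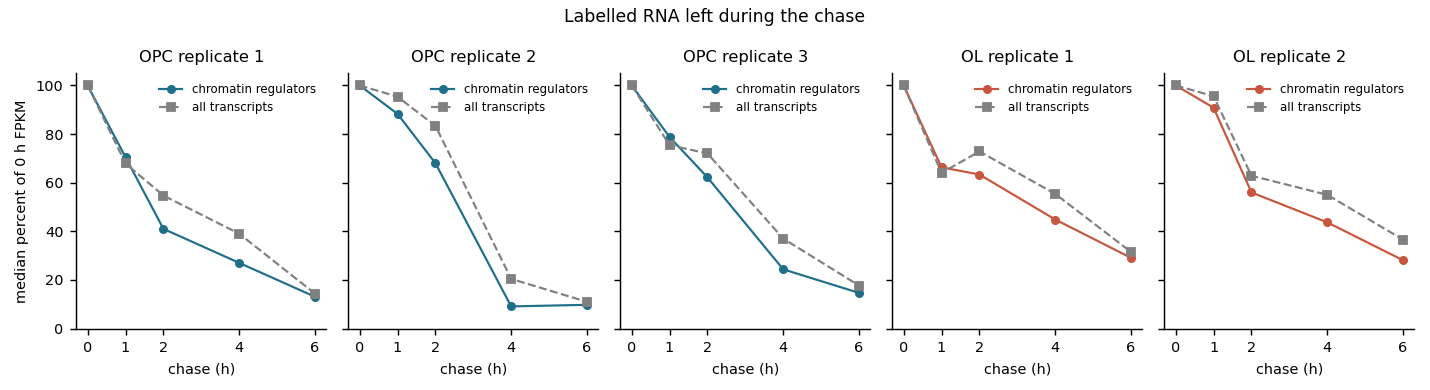
Median percent of the 0 h FPKM left (y axis) against hours of chase (x axis) in each replicate, for the chromatin regulators listed in that cell type (coloured circles, 71 in OPCs and 78 in OLs) and for all transcripts listed (grey squares). At 4 h the chromatin regulators stood at 27.0, 9.10 and 24.3% in the OPC replicates and at 44.8 and 43.7% in the OL replicates, below all transcripts in each replicate.

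The fall of the label over the chase was tested in each cell type. In OPCs the labelled level of 70 of 71 chromatin regulators fell over the 6 h (limma on log2(FPKM + 1) with a slope over time, adjusted p under 0.05), against 81.9% of all transcripts. The exception was Hdac3, the deacetylase of the nuclear receptor corepressors, with a slope of -0.01 ± 0.04 log2 per h (SE, adjusted p = 0.84). In OLs 67 of 78 fell, against 68.9% of all, and none rose by limma, also at an unadjusted p under 0.05. The 11 that did not pass there were Smarcd3, Kdm6b, Hdac10, Hdac3, Kmt2b, Smarcc2, Setd1b, Kmt2d, Chd3, Hdac7 and Hdac6, with slopes from -0.14 to 0.05 log2 per h. The median slope was -0.43 log2 per h in OPCs (all transcripts -0.38) and -0.26 in OLs (all -0.20). With each library scaled to the median of its own 0 h library, which asks for loss relative to the other transcripts, 15 of 71 fell and 11 rose in OPCs and 15 of 78 fell and 11 rose in OLs, while 5040 of 8530 and 4894 of 9751 transcripts passed in either direction. At 6 h, 10, 9 and 8 of 71 chromatin regulators were listed at 0 in the OPC replicates, and 1 and 0 of 78 in the OL replicates, against 15.7, 21.6, 16.4, 4.08 and 0.790% of all transcripts.

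Half-lives were longer in OLs than in OPCs for most of these genes, as for most transcripts. The log2 difference was above 0 for 54 of 70, with a median of 0.61. Over all transcripts it was above 0 for 5663 of 8112, with a median of 0.37, and 44 of the 70 lay above that median. For 39 of the 70 each OL replicate was longer than each OPC replicate, and for 4 (Dnmt1, Hdac2, Hdac9 and Tet1) each was shorter; the background was 35.9% and 2.01% of all transcripts. A transcript already at 6 h in OPCs could not be counted as longer, which held for a larger share of all transcripts than of the chromatin regulators. Half-lives refitted without the 6 h libraries gave 14 longer and 7 shorter, where 20.5% and 4.99% of all transcripts were longer and shorter. Placed by percentile within each replicate, 12 were higher in OLs without overlap (background 15.3%) and 15 lower (background 30.6%).

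**Figure D2:**
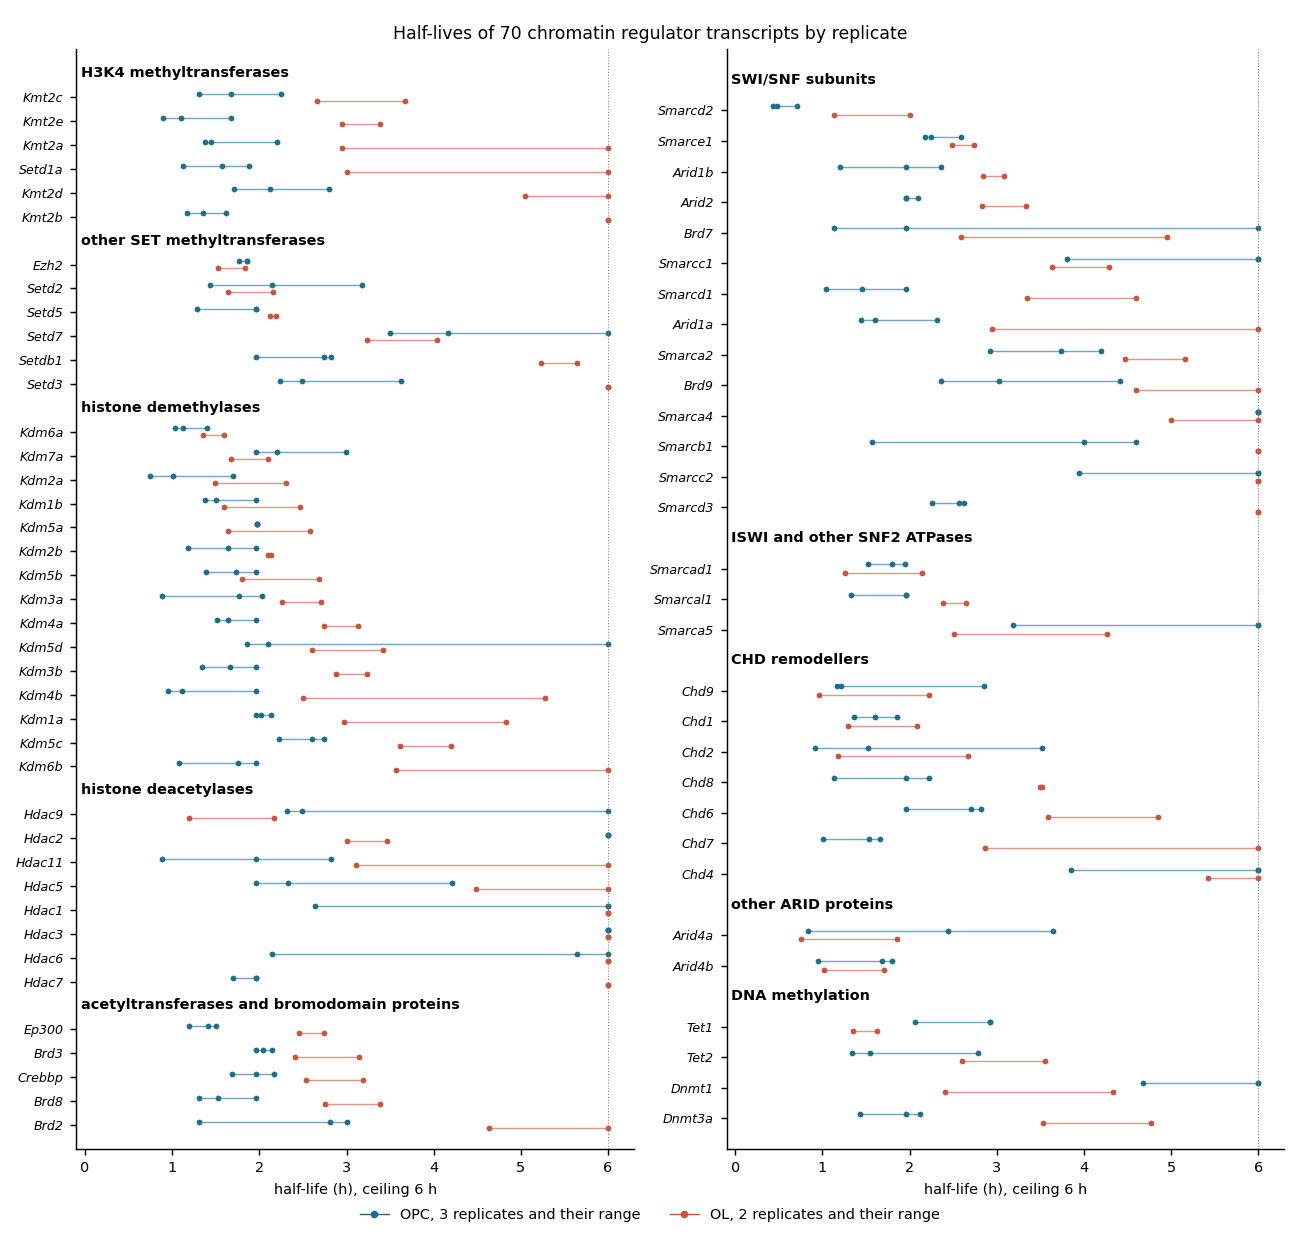
Half-life in h (x axis, ceiling 6 h shown by the dotted line) of the 70 chromatin regulators with a value in all 5 replicates, grouped by role and ordered by the OL mean within each group. Points are replicates (OPC blue, OL red) and lines span their range. The OL points lie to the right of all OPC points for all 6 genes grouped by symbol as H3K4 methyltransferases, and to the left for Dnmt1, Hdac2, Hdac9 and Tet1.

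By limma on log2 half-life with Benjamini-Hochberg adjustment over 8112 transcripts, 3 of the 70 were longer in OLs (Kmt2b, Hdac7 and Smarcd3; background 3.39%) and 1 was shorter (Hdac2; background 0.148%), while 24 longer and 2 shorter had an unadjusted p under 0.05, as 1801 and 65 of the 8112 had. The shares are near the background for the longer ones. With half-lives centred on the median of each replicate, 1 of the 8112 transcripts passed and none of the 4 did, but Hdac2 differed by more (log2 difference -1.80 against -0.89, adjusted p = 0.051), Kmt2b by 1.23 (adjusted p = 0.051), Hdac7 by 0.78 (adjusted p = 0.082) and Smarcd3 by 0.37 (adjusted p = 0.36). On ranks, and with the replicate number as a block, no transcript passed. With the block the log2 differences were 2.12, 1.72, 1.3 and -0.89 for Kmt2b, Hdac7, Smarcd3 and Hdac2 (adjusted p = 0.20, 0.16, 0.18 and 0.21). Without OPC replicate 1 there were 3 calls, 2 of them among the 4, and without any other replicate there were 1 or 2, of which 1 was among the 4.

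Kmt2b, a methyltransferase of histone H3 lysine 4 at promoters (chr7:30568858-30588726, 37 exons), had half-lives of 1.62, 1.17 and 1.35 h in OPC replicates 1 to 3 and of 6 h in both OL replicates. Its label in OPCs was down to 16.4, 4.52 and 11% of the 0 h level at 6 h, whereas 90.6 and 55.4% were left in OLs. The groups did not overlap, and the fitted ratio was 4.38-fold (95% interval 3.14 to 6.12, adjusted p = 0.028, limma, 3 and 2 replicates); both OL values are at the ceiling, so the ratio is to a capped value. The level at 0 h was 4.08, 8.67 and 7.63 FPKM in OPCs and 6.32 and 5.77 FPKM in OLs, which overlap.

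Hdac7, a deacetylase of class IIa (chr15:97792681-97831767, 24 exons), had half-lives of 1.70, 1.96 and 1.96 h in OPCs and of 6 h in both OL replicates (ratio 3.21, 95% interval 2.71 to 3.80, adjusted p = 0.015). Its level at 0 h was 6.51, 8.16 and 8.90 FPKM in OPCs but 1.05 and 1.51 FPKM in OLs, just over the 1 FPKM that a transcript needed to be listed. At 1.05 FPKM the chase in OL replicate 1 went through 35.1, 209, 107 and 114% of the 0 h level at 1, 2, 4 and 6 h, so its OL half-life rests on low and scattered values. Its 2 tied OPC half-lives are at the value shared by many transcripts.

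Smarcd3, the Baf60c subunit of SWI/SNF (chr5:24592622-24602012, 13 exons), had half-lives of 2.63, 2.26 and 2.57 h in OPCs and of 6 h in both OL replicates (ratio 2.42, 95% interval 2.05 to 2.86, adjusted p = 0.024). As for Kmt2b and Hdac7, the OL spread is 0 by the ceiling, which the interval does not take into account. The OL curves did not run in parallel: in replicate 1 it stood at 173% of the 0 h level at 4 h and at 17.0% at 6 h, and in replicate 2 at 77.7 and 79%.

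Hdac2, a class I deacetylase of the Sin3 and NuRD complexes (chr10:36974544-37001889, 14 exons), went the other way. Its half-life was 6 h in all 3 OPC replicates and 3.01 and 3.47 h in OLs (ratio 0.54, 95% interval 0.46 to 0.62, adjusted p = 0.031). As all OPC values are at the ceiling, their spread is 0 by construction and the ratio is to a capped value. The chase slope, which has no ceiling, differed by -0.14 ± 0.08 log2 per h and did not pass (adjusted p = 0.21). After 4 h, 89.5, 69.2 and 94.2% were left in OPCs and 43.1 and 51.4% in OLs. The levels at 0 h overlapped (77.8, 106 and 91.6 FPKM against 84.4 and 76.7 FPKM), and its percentile among all half-lives went from 86.4 in OPCs to 36.6 in OLs.

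**Figure D3:**
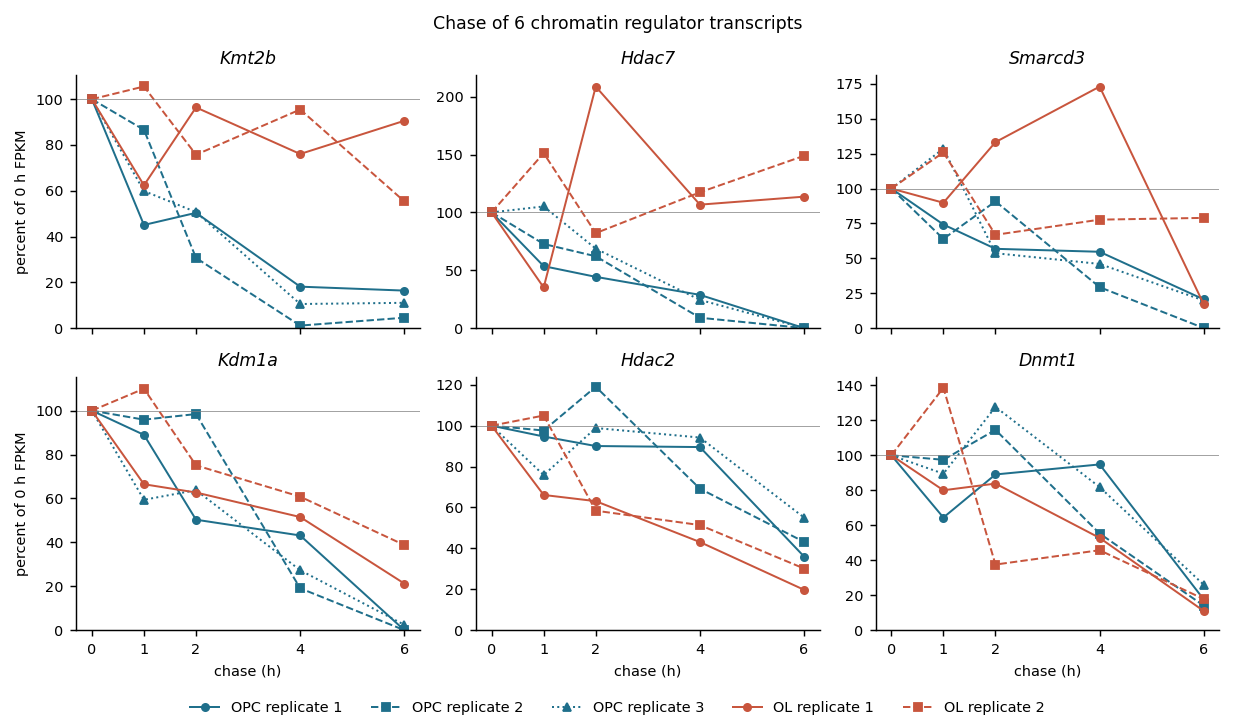
Percent of the 0 h FPKM (y axis) against hours of chase (x axis) for 6 chromatin regulators, 1 line per replicate (OPC blue, OL red). For Kmt2b the OL lines stay at or above 55.4% while the OPC lines end at or below 16.4%; for Hdac2 the OL lines lie below the OPC lines from 2 h on.

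The Kmt2 and Setd1 genes were grouped by symbol as H3K4 methyltransferases, and the activity of each product was not examined. All 6 with 5 half-lives (Kmt2a, Kmt2b, Kmt2c, Kmt2d, Kmt2e and Setd1a) were longer in each OL than in each OPC replicate (background 35.9%). By percentile 4 of the 6 were higher, Kmt2a and Kmt2c overlapping (background 15.3%). The median of the group was 1.38, 1.63 and 2.04 h in OPCs and 6 and 2.98 h in OLs, and all 6 had a higher mean percentile in OLs. Kmt2d went from 2.12, 1.71 and 2.80 h to 6 and 5.04 h, and Kmt2a from 1.45, 1.38 and 2.20 h to 6 and 2.95 h. Kmt2c went from 1.31, 1.68 and 2.25 h to 3.67 and 2.66 h. Of the 5 Kmt2 genes it had the smallest log2 difference (0.88 ± 0.32 SE), and Kmt2b was the one that passed the test. Setd1b, listed for OLs alone at 2.18 and 2.46 FPKM, had half-lives of 6 and 3.59 h. At 0 h none of the 6 passed the test by limma.

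Other SET methyltransferases were divided: 3 of 6 had a longer and 3 a shorter mean in OLs. Ezh2, the catalytic subunit of the Polycomb repressive complex PRC2, had half-lives of 1.86, 1.77 and 1.86 h in OPCs and 1.84 and 1.53 h in OLs. By percentile it was lower in OLs without overlap (background 30.6%). Its chase slopes overlapped, at -0.43, -0.80 and -0.71 log2 per h against -0.43 and -0.27 (difference 0.30 ± 0.11, adjusted p = 0.059, limma). Setd3 went from 3.63, 2.24 and 2.49 h to 6 h in both OL replicates, and Setdb1, a methyltransferase of H3 lysine 9, from 2.82, 1.96 and 2.74 h to 5.23 and 5.64 h. Neither passed the test (adjusted p = 0.12 and 0.090). Setdb2, in OLs alone, had 0.89 and 2.73 h.

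Histone demethylases were short-lived in both cell types. Medians over the 15 with 5 values were 1.51, 1.96 and 1.70 h in OPCs and 2.26 and 2.60 h in OLs, and 13 had a longer mean in OLs. Over all transcripts, 5663 of 8112 had a log2 difference in half-life above 0. Kdm2a (0.75, 1.01 and 1.70 h) and Kdm6a (1.12, 1.40 and 1.03 h) were among the 5 shortest of all chromatin regulators in OPCs. Kdm6a, the X-linked demethylase of H3 lysine 27, stayed short in OLs (1.35 and 1.59 h), whereas the related Kdm6b went from 1.96, 1.75 and 1.07 h to 6 and 3.56 h. Kdm4c, in OLs alone at 21.3 and 23.0 FPKM, had 1.40 and 2.16 h.

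Histone deacetylases spread widely: mean half-lives of the 8 with 5 values ran from 1.87 to 6 h in OPCs and from 1.68 to 6 h in OLs. Hdac3 was at 6 h in all 5 replicates and Hdac1 in 4 of 5, with 2.64 h in OPC replicate 1. Hdac2 and Hdac7 were given above, and Hdac9 went from 2.32, 2.49 and 6 h to 1.19 and 2.16 h with no overlap but without passing the test (adjusted p = 0.46). Hdac1 and Hdac2, which stand in for each other in the same complexes, were both at the ceiling in OPC replicates 2 and 3, which cannot rank them, while in OPC replicate 1 and in both OL replicates they differed, Hdac2 being the longer in the former and Hdac1 in the latter. Of those listed for OLs alone, Hdac10 had 6 and 2.95 h, Hdac4 2.56 and 0.85 h and Hdac8 0.96 and 2.38 h, at 3.43 to 11.5 FPKM.

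Ep300, Crebbp, Brd2, Brd3 and Brd8 each had a longer half-life in each OL than in each OPC replicate (background 35.9%). By percentile Brd8 alone was higher without overlap (background 15.3%). The bromodomain proteins Brd7 and Brd9 were counted with the SWI/SNF subunits: Brd9 did not overlap either (3.03, 2.36 and 4.42 h against 4.60 and 6 h), and Brd7 did (1.13, 1.96 and 6 h against 2.59 and 4.95 h). Ep300 went from 1.5, 1.2 and 1.41 h to 2.74 and 2.45 h (adjusted p = 0.063) and its relative Crebbp from 1.69, 1.96 and 2.17 h to 2.54 and 3.19 h (adjusted p = 0.18). Brd2 went from 1.31, 2.81 and 3.01 h to 6 and 4.64 h and Brd3 from 2.04, 1.96 and 2.15 h to 2.41 and 3.14 h.

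The 14 SWI/SNF subunits spanned the whole range. Smarca4 was at 6 h in all 3 OPC replicates, as Hdac2 and Hdac3 were, and had 6 and 5.00 h in OLs, whereas the alternative ATPase Smarca2 had 4.19, 3.73 and 2.93 h and then 5.16 and 4.47 h. Smarcc2 had 6, 3.94 and 6 h and then 6 h in both OL replicates, and Smarcc1 6, 3.81 and 6 h and then 4.29 and 3.64 h. The 3 Smarcd subunits, of which a complex takes 1, differed: Smarcd2 was the shortest-lived chromatin regulator in OPCs with 0.44, 0.70 and 0.48 h and had 1.13 and 2.00 h in OLs, Smarcd1 went from 1.04, 1.96 and 1.45 h to 4.60 and 3.35 h, and Smarcd3 was given above. Smarcd2 lay at 6.12 to 9.88 FPKM at 0 h in the 5 replicates. Smarcb1 went from 1.57, 4.60 and 4.00 h to 6 h in both OL replicates. Arid1a, whose product defines the canonical complex, went from 1.44, 1.61 and 2.32 h to 6 and 2.95 h, and Arid1b from 1.2, 1.96 and 2.36 h to 3.08 and 2.84 h.

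Among the CHD remodellers, Chd4 of the NuRD complex was stable (6, 3.85 and 6 h, then 6 and 5.42 h), as was its relative Chd3 in OLs, the cell type in which it was listed (6 h in both). Chd7 went from 1.66, 1.00 and 1.54 h to 6 and 2.87 h and Chd8 from 1.13, 1.96 and 2.23 h to 3.5 and 3.52 h. Chd9, Chd1 and Chd2 overlapped between the cell types and stayed below 3 h in OLs. Arid4a (0.75 and 1.86 h) and Arid4b (1.02 and 1.70 h), partners of the Sin3 deacetylase complex, were the shortest-lived chromatin regulators in OLs, and Arid5b, in OPCs alone, had 0.38, 0.79 and 1.43 h.

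Of the DNA methylation genes, Dnmt1, the maintenance methyltransferase (chr9:20907209-20952979, 39 exons), went from 6, 4.68 and 6 h to 4.34 and 2.41 h, and Tet1, which oxidises methylcytosine, from 2.92, 2.07 and 2.92 h to 1.35 and 1.63 h. Neither passed the test (adjusted p = 0.30 and 0.16). Their chase slopes, which have no ceiling, overlapped between the cell types. For Dnmt1 they were -0.31, -0.45 and -0.29 log2 per h in OPCs and -0.41 and -0.35 in OLs (difference -0.03 ± 0.09, adjusted p = 0.84, limma). For Tet1 they were -0.23, -0.44 and -0.32 against -0.40 and -0.42 (-0.08 ± 0.09, adjusted p = 0.55). The de novo methyltransferase Dnmt3a went the other way, from 1.43, 1.96 and 2.12 h to 4.77 and 3.53 h (adjusted p = 0.11), and Tet2 overlapped (1.54, 1.34 and 2.79 h against 2.61 and 3.55 h).

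Labelled RNA at 0 h reflects what was made and kept over the 24 h of labelling. By limma on log2(FPKM + 1) over 8177 transcripts, 11 of 70 were higher in OLs (background 14.1%) and 8 were lower (background 17.5%). Neither share of the 70 stands far from its background. In these bulk libraries fewer cells of a type and less RNA per cell cannot be told apart, and a 0 h FPKM was read as a share of its library. That reading comes from the decimals of the 0 h values, since the study describes spike-in scaling at each time point. With the libraries scaled to 1 median, 17 of the 19 passed. With the replicate number as a block 17 passed, 14 of them among the 19.

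**Figure D4:**
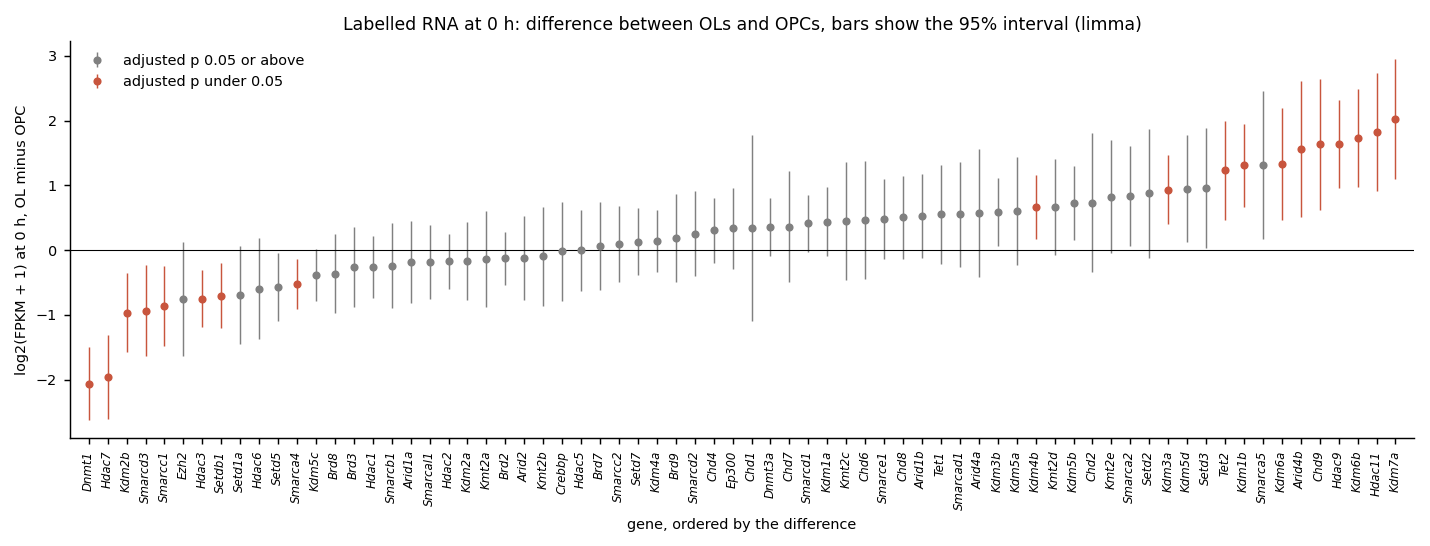
Difference in log2(FPKM + 1) at 0 h, OL minus OPC (y axis), for the 70 chromatin regulators in order (x axis), with 95% intervals from limma (3 OPC and 2 OL replicates). The 19 in red passed an adjusted p of 0.05, from Dnmt1 (-2.06) to Kdm7a (2.02).

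Of 15 demethylases tested, 6 rose and 1 fell, beside 14.1% and 17.5% of all transcripts; the difference was not tested. Kdm7a, a demethylase of H3 lysines 9 and 27 (chr6:39136623-39206789), rose from 1.61, 5.84 and 4.98 FPKM to 16.9 and 19.8 FPKM (log2 difference 2.02 ± 0.41 SE, adjusted p = 0.0060). Kdm6b rose from 1.85, 4.28 and 2.61 to 10.2 and 13.3 FPKM (1.74 ± 0.34, adjusted p = 0.0045). For both, each OL library was above each OPC library. Kdm1b, Kdm6a, Kdm3a and Kdm4b passed the same test with 1.31, 1.33, 0.94 and 0.67, and Kdm2b, which removes methyl groups from H3 lysine 36, fell from 13.4, 17.1 and 18 to 6.72 and 8.80 FPKM (-0.97 ± 0.27, adjusted p = 0.024, and -0.89 with adjusted p = 0.096 in the fit with a replicate block).

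Deacetylases moved both ways. Hdac11, the class IV enzyme (chr6:91156665-91174692), rose from 9.06, 2.67 and 4.37 to 21.4 and 18.2 FPKM (1.83 ± 0.41, adjusted p = 0.0088) and Hdac9 from 3.45, 3.59 and 2.07 to 11.8 and 11 FPKM (1.64 ± 0.30, adjusted p = 0.0035). Hdac7 fell from the levels given above (-1.96 ± 0.29, adjusted p = 0.0011) and Hdac3 from 77.7, 64.3 and 71.8 to 48.5 and 36.1 FPKM (-0.75 ± 0.20, adjusted p = 0.019). Of the class IIa enzymes, Hdac9 therefore rose and Hdac7 fell, and Hdac5, at 24.2, 14.4 and 22.7 FPKM and then 17.8 and 22.4 FPKM, overlapped.

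Chd9 rose from 2.07, 8.31 and 6.93 to 16.2 and 19.8 FPKM (1.64 ± 0.45, adjusted p = 0.023) and Arid4b from 3.01, 13.5 and 8.25 to 21.8 and 24.4 FPKM (1.57 ± 0.47, adjusted p = 0.031). In both the lowest value was that of OPC replicate 1, the replicate that was low for many of these genes, and each OL library was still above the higher OPC replicates. Tet2 also rose (1.23 ± 0.34, adjusted p = 0.023). Without OPC replicate 1 the counts were 12 higher and 10 lower, with all 19 among them. Without OPC replicate 3 there were 8 in all, and without either OL replicate 5.

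Dnmt1 fell from 50.0, 64.3 and 48.8 to 15.4 and 9.55 FPKM (-2.06 ± 0.25, adjusted p = 0.00036), while Dnmt3a stood at 27.7, 25.9 and 32.0 FPKM in OPCs and at 37.5 and 35.6 FPKM in OLs, without overlap but without passing the test (adjusted p = 0.20). Dividing-cell markers fell with it, as given above, and their part in it was not tested. Among SWI/SNF subunits Smarcc1 fell from 47.8, 97.7 and 67.7 to 38.1 and 36.2 FPKM (-0.86 ± 0.27, adjusted p = 0.039), Smarcd3 from 16.5, 17.4 and 14.2 to 5.53 and 11 FPKM (-0.94 ± 0.31, adjusted p = 0.046), and Smarca4 fell with -0.53 ± 0.17 (adjusted p = 0.043). Without OL replicate 1 the difference of Smarcd3 was -0.50 (adjusted p = 0.33), and with the replicate block -1.02 (adjusted p = 0.0502). Setdb1 completed the 8 (-0.70 ± 0.22, adjusted p = 0.040).

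The balance of related genes can be read from these levels, which are per length. Smarcc1 stood above Smarcc2 in each library, where Smarcc2 was at 16.7, 29.0 and 21.7 FPKM in OPCs and at 22.8 and 24.3 FPKM in OLs. Smarca4 (64.8, 63.8 and 71.3 FPKM in OPCs, 45.3 and 46.5 FPKM in OLs) stood above Smarca2 (5.08, 11.5 and 8.68 FPKM, then 13.2 and 17.2 FPKM) in each library. Kdm6a stood above Kdm6b in each library as both rose. The ratios were not tested.

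The difference in chase slope between the cell types was tested on 1 slope per replicate, which takes no ceiling. By limma, 18 of 70 were shallower in OLs (background 22.5%) and none was steeper (background 0.269%), also at an unadjusted p under 0.05, so the share was near that of all transcripts. Without OPC replicate 1 there were 26, without OL replicate 1 there were 2 and without OL replicate 2 there were 7. The median difference was 0.18 log2 per h, against 0.14 over all, and 42 of 70 lay above that. Of the 18, 7 were demethylases (Kdm1a, Kdm2b, Kdm3a, Kdm3b, Kdm4a, Kdm4b and Kdm5c) and 3 H3K4 methyltransferases (Setd1a, Kmt2b and Kmt2d). The others were Hdac6, Hdac7, Arid1a, Smarcd1, Smarcd3, Brd8, Chd7 and Setdb1.

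Kdm1a, the flavin-dependent demethylase of H3 lysine 4 and a subunit of the CoREST complex, was measured at a level well above the floor (26.4, 39.1 and 42.4 FPKM in OPCs, 44.4 and 52.1 FPKM in OLs). Its slope was -0.73, -0.91 and -0.69 log2 per h in OPCs and -0.31 and -0.24 in OLs (difference 0.51 ± 0.10, adjusted p = 0.0040), and at 6 h 0, 0 and 2.43% were left in OPCs and 21.2 and 38.8% in OLs. Kdm4b had slopes of -0.76, -0.67 and -0.63 against -0.23 and -0.36 (0.39 ± 0.10, adjusted p = 0.012). In both genes the groups did not overlap. Without the 6 h libraries the difference of Kdm1a was 0.23 (adjusted p = 0.24), and those of Kdm4b and Setd1a were 0.62 and 0.61 (adjusted p = 0.012 and 0.010). Hdac7 passed there too (0.49, adjusted p = 0.015), whereas Kdm2b (0.43, adjusted p = 0.053) and Hdac6 (0.28, adjusted p = 0.13) did not.

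Kdm2b had slopes of -0.59, -0.72 and -0.74 against -0.19 and -0.31 (0.43 ± 0.10, adjusted p = 0.0075) and Setd1a of -0.47, -0.66 and -0.50 against -0.003 and -0.26 (0.42 ± 0.10, adjusted p = 0.0086). Hdac7 (0.57 ± 0.09, adjusted p = 0.0012) and Hdac6, the cytoplasmic tubulin deacetylase (0.41 ± 0.08, adjusted p = 0.0038), stood at 1.05 to 6.38 FPKM in OLs at 0 h, where adding 1 to the FPKM flattens a slope. With 0.1 added in place of 1, or with libraries scaled to their 0 h median, 0 of all 8177 transcripts passed, and so none of the 70. The differences were then 1.09 and 0.71 for Hdac7 (adjusted p = 0.053 and 0.059) and 0.86 and 0.58 for Kdm1a (adjusted p = 0.066 and 0.074).

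Codon composition and ATTTA moved with half-life in OLs more than in OPCs. Over the 70, Spearman's rho between half-life and the share of codons ending in G or C was -0.03, 0.30 and 0.09 in OPC replicates 1 to 3 and 0.55 and 0.41 in OL replicates 1 and 2. Over all transcripts these were -0.06, 0.07, -0.06, 0.29 and 0.11. With the AAA share of lysine codons rho was -0.03, -0.35 and -0.12 and then -0.55 and -0.42, where all transcripts had 0.03, -0.08, 0.04, -0.26 and -0.12. With the UUU share of phenylalanine codons it was 0.01, -0.19 and -0.08 and then -0.48 and -0.38, against 0.05, -0.04, 0.05, -0.22 and -0.08 over all. With the count of ATTTA it was -0.07, -0.25 and -0.17 and then -0.54 and -0.42, against -0.08, -0.19, -0.06, -0.29 and -0.21 over all. With the length of the 3′UTR, in which a longer sequence can hold more ATTTA, it was -0.10, -0.21 and -0.08 and then -0.43 and -0.34. Over all transcripts it was -0.13, -0.21, -0.11, -0.25 and -0.24. With the number of codons it was -0.09, -0.45 and -0.21 in OPCs and -0.01 and -0.21 in OLs, against -0.17, -0.26, -0.18, -0.18 and -0.25 over all. With the length of the messenger RNA it was -0.10, -0.44 and -0.17 and then -0.20 and -0.32, against -0.17, -0.29, -0.17, -0.26 and -0.32 over all. The features share base composition with each other, the points share libraries, and the level of OPC replicate 1 at 0 h followed the same composition, so these are descriptions and carry no test.

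**Figure D5:**
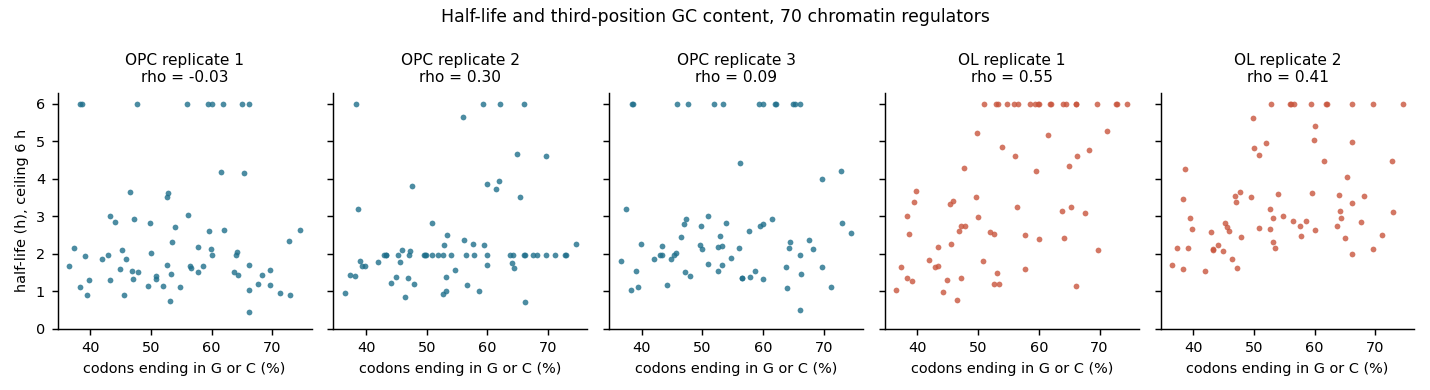
Half-life in h (y axis, ceiling 6 h) against the share of codons ending in G or C (x axis, percent) for the 70 chromatin regulators, 1 panel per replicate, with Spearman's rho over the 70 above each. The cloud rises to the right in the OL panels (0.55 and 0.41), and the row of points at 1.96 h in OPC replicate 2 (rho 0.30) is the tied value of the fit.

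The 10 that reached 6 h in both OL replicates were Chd3, Hdac1, Hdac3, Hdac6, Hdac7, Kmt2b, Setd3, Smarcb1, Smarcc2 and Smarcd3, with 0 to 2 ATTTA in the 3′UTR and 52.9 to 74.5% of codons ending in G or C. The 5 with the shortest mean were Arid4a, Arid4b, Kdm6a, Tet1 and Smarcd2. The first 4 had 2 to 10 ATTTA and 36.5 to 47.2%, whereas Smarcd2 had 0 ATTTA and 66.1%, and so went against the trend. The counts go with length: the 3′UTRs of the 10 were 129 (Smarcd3) to 1200 bases long (Smarcc2). Those of the first 4 were 988 (Arid4a) to 7962 bases long (Tet1). Hdac1 and Hdac2 had 62.0 and 38.3% of codons ending in G or C and 1 and 2 ATTTA. Kmt2b and Kmt2c had 56.6 and 39.8%, with 1 and 0 ATTTA in annotated 3′UTRs of 303 and 57 bases, which can hold few.

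Partners of these enzymes in the same complexes, 102 genes in 8 lists (Polycomb complexes PRC1 and PRC2, deacetylase complexes, SWI/SNF accessory subunits, the COMPASS core of the H3K4 methyltransferases, other acetyltransferases and methyltransferases, and readers of DNA methylation), were measured beside them. Of 77 listed for both cell types, 8 were higher and 16 lower in OLs at 0 h, 2 had a longer half-life and 0 a shorter (limma; 1 at an unadjusted p under 0.05), and 29 had a shallower slope and 0 a steeper. The backgrounds are those given above (14.1% and 17.5% at 0 h, 3.39% and 0.148% for half-life, 22.5% and 0.269% for slope). Uhrf1, which brings Dnmt1 to replicated DNA, fell from 111, 108 and 110 to 15.4 and 5.77 FPKM (-3.39 ± 0.32, adjusted p = 8.9e-05), while its half-life of 2.73, 1.96 and 2.36 h in OPCs overlapped with 2.37 and 2.44 h in OLs. Cxxc1 of the Setd1 complexes had half-lives of 2.07, 1.96 and 1.96 h and then 6 h in both OL replicates (log2 difference 1.59 ± 0.03, adjusted p = 0.0027), 2 of the 3 OPC values being the tied one and both OL values the ceiling, so that little spread was left by construction, and its 0 h level fell from 30.7, 31.9 and 35.8 to 15.4 and 22.6 FPKM. The methyltransferase of arginine Prmt5 was the other with a longer half-life (1.96, 1.96 and 2.14 h against 4.01 and 3.73 h, adjusted p = 0.025), 2 of its OPC values again being within 0.01 h of the tied one. Of the 9 COMPASS core genes 3 were lower at 0 h (Cxxc1, Dpy30 and Hcfc1) and 5 had a shallower slope.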

How the data were processed

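Adapter clipping (fastx_clipper), alignment by HISAT2 2.1.0 against GRCm38 and tabulation of FPKM by StringTie 1.3.5 over canonical coding transcripts were done by the authors; the deposited FPKM are scaled to 5-EU labelled spike-ins, read here as relative to the 0 h library of the same replicate, whose values keep the decimals of unscaled FPKM. Transcripts under 1 FPKM at 0 h, or at 0 at 1 h and 2 h, had been left out. The deposited half-lives (other values, in h) come from least absolute deviations, with 6 h as the ceiling; an own refit matched them within 0.01 h for 98.5 to 99.9% of transcripts. Depth is unknown here, since the processed values used hold no counts. The raw reads, which the study also deposited, were not used. The no-biotin control was not analysed here, so no background was subtracted.

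Comparisons used limma 3.58.1 (R 4.3.3), on log2 half-life or log2(FPKM + 1), pseudocount 1, two-sided, with Benjamini-Hochberg adjustment over all transcripts and a threshold of 0.05, without a filter on low values; the empirical Bayes trend was used for FPKM. Percentiles are ranks among all half-lives of a replicate. The models for half-life, 0 h level, slope difference and the OPC chase slope were tested on simulated data. Gene models came from GENCODE M21. Figures used matplotlib. The genes and lists were chosen with earlier results of these data known. Named with statistics were genes past the threshold, at most 6 in each direction where over 12 passed, and named by value the 5 longest and 5 shortest, genes listed for 1 cell type and related pairs; the other genes named with a difference were chosen after their values were seen. The study says that the OL replicates match a pair of OPC replicates without naming them; the replicate block used the numbers 1 and 2 that the labels share (correlation of deviations -0.06 for half-lives and 0.04 for 0 h levels). Alternatives were leaving out each replicate, a replicate block, other scalings, pseudocounts, filters, refits and time points, of which those for replicates that did not overlap were chosen after seeing the data.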

Additional observations from a re-analysis of the deposited data

Results flagged for a closer look

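The 18 chromatin regulators below were flagged because their chase slope, the loss of label per h, differed between OPCs and OLs by a test of the difference itself (limma on 1 slope per replicate, adjusted p under 0.05), and all 18 were shallower in OLs. The difference in log2 per h, OL minus OPC, was 0.57 for Hdac7, 0.51 for Kdm1a, 0.43 for Kdm2b, 0.42 for Setd1a, 0.41 for Hdac6 and 0.39 for both Kdm4b and Kdm5c. It was 0.37 for Smarcd1, 0.35 for Kmt2b, 0.33 for Brd8, 0.31 for Setdb1 and 0.30 for Kdm4a, Arid1a and Smarcd3. It was 0.28 for Kdm3a and Kmt2d and 0.27 for Chd7 and Kdm3b. Kmt2b, Hdac7 and Smarcd3 also had a longer half-life in OLs by limma, from the same chase libraries. Levels at 0 h fell in OLs for Hdac7, Kdm2b, Setdb1 and Smarcd3 and rose for Kdm3a and Kdm4b.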

How the results depend on the processing

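Single genes were followed through the alternatives for the 4 half-life calls and the 6 largest slope difference calls. At 0 h, the 6 largest calls in each direction were followed. None of these calls reversed under any alternative run. Of their values, 144 stayed on their side of the threshold and 78 missed it. The other called genes entered the counts below but were not followed singly. Against 4 half-life calls there were 0 with a replicate block, on centred half-lives, on ranks, with half-lives refitted without the 6 h libraries, and with an empirical Bayes trend, and 1 to 3 with 1 replicate left out, of which 1 or 2 were among the 4. The 39 longer and 4 shorter without overlap became 14 and 7 without the 6 h libraries, and leaving out OPC replicate 1 or 2, chosen after seeing the data, gave 40 to 42 longer and 4 to 10 shorter (10 without OPC replicate 2). Against 19 calls at 0 h there were 5 to 22 with 1 replicate left out (5 without either OL replicate, 8 without OPC replicate 3) and 17 with the replicate block, 14 of them among the 19. The chase slope calls, 70 in OPCs and 67 in OLs, were 26 each with libraries scaled to the 0 h median, 69 to 70 and 48 to 63 with 1 replicate left out, and 70 and 65 with no replicate block. Against 18 slope differences there were 0 with a pseudocount of 0.1, 0 with scaled libraries, 20 with the replicate block, 15 of them among the 18, and 2 to 26 with 1 replicate left out (2 without OL replicate 1, 7 without OL replicate 2, 26 without OPC replicate 1). The cause was not tested. Where 1 OL replicate was left out, the other was assumed to vary like the OPC replicates. Samples with the same replicate number did not deviate together (correlation of deviations -0.06 for half-lives, 0.04 for 0 h levels), and the study, which matched the OL replicates to a pair of OPC replicates, does not say to which. With 2 OL replicates, a ceiling at 6 h and unknown depth, small differences could not be detected.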
